A study of Mus musculus with 8 samples.

Results

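The miRNAs of the Dlk1-Dio3 imprinted cluster were examined in kidneys of diabetic and control mice. Its members were taken by name from a list of 36 mature miRNAs of the cluster, and 35 of them had probes on an array carrying 1881 mouse miRNAs. MiR-299a-5p has no probe of its own name and is represented here only through probes named for miR-299b-5p, described with the sequences. The kidneys came from 4 control samples of strain C57BL/6J, which the titles call Mock, and 4 Akita samples of strain C57BL/6-Ins2Akita/J. All samples were whole kidneys of male mice, and the labels give the age of each as 36 without a unit. The Akita allele is a dominant missense change in Ins2, an insulin gene of the mouse; its misfolded proinsulin damages pancreatic beta cells, and the mice are hyperglycaemic. Whether the controls had a mock treatment, and whether each sample came from a separate mouse, is not stated in the sources used here, so that p-values measure only the spread between these samples. For each sample 100 ng of RNA was labelled with Cy3 and hybridised to 1 array.

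The Dlk1-Dio3 domain is an imprinted region of mouse chromosome 12. Its protein-coding genes Dlk1, Rtl1 and Dio3 are expressed from the paternal chromosome, whereas the noncoding RNAs Meg3, Rian and Mirg and the miRNAs are expressed from the maternal one. A first group of miRNA hairpins lies antisense to Rtl1, a few lie in Rian, and a long row of hairpins runs from miR-379 to miR-410 through Mirg. The miRNAs are known for high levels in the embryo, the placenta and the adult brain, where miR-134 acts on dendritic spines, while miR-127 and miR-433, made opposite Rtl1, pair fully with the Rtl1 transcript.

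The mature sequences of the 4 members with a detected signal and a RefSeq entry are shown first, from 5′ to 3′, with the seed (bases 2 to 8, which pair with targets) in capitals. Names carry the prefix mmu for the mouse, left out in the text. The sequences were taken from RefSeq with GRCm38.p6, in which 32 of the 35 members on the array were found. MiR-487b-3p, miR-485-5p and miR-376c-3p are named only.
mmu-miR-494-3p: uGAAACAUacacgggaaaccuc
mmu-miR-370-3p: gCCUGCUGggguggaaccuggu
mmu-miR-134-5p: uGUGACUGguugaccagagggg
mmu-miR-668-3p: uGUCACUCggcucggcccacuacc

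These 4 seeds differ from each other, and so do all of the 32 seeds found, of which 0 were shared between members. Among these 32, 3 pairs of members differed by 1 base of the seed, which are shown because the cluster is known for such near-copies. MiR-487b-3p, miR-485-5p and miR-376c-3p were not compared, so any pair that includes them is not counted. In these pairs 0 members were detected on any array.
mmu-miR-379-5p: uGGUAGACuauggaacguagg
mmu-miR-411-5p: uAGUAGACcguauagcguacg
mmu-miR-300-3p: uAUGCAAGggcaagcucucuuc
mmu-miR-381-3p: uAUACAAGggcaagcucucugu
mmu-miR-376a-3p: aUCGUAGAggaaaauccacgu
mmu-miR-376b-3p: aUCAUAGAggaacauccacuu

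Outside the cluster, a few other mature miRNAs carry the seed of a member. MiR-362-3p has the seed of miR-329-3p and was detected on all 8 arrays, whereas miR-329-3p was detected on 0.

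A probe of this array pairs from the 3′ end of the mature miRNA, over a length that differs between miRNAs. The probes of the 3 members detected on all 8 arrays are shown as the array files give them, since the values below rest on them.
miR-494-3p, 14 bases: gaggtttcccgtgt
miR-494-3p, 15 bases: gaggtttcccgtgta
miR-370-3p, 14 bases: accaggttccaccc
miR-370-3p, 15 bases: accaggttccacccc
miR-487b-3p, 17 bases: aagtggatgaccctgta
miR-487b-3p, 18 bases: aagtggatgaccctgtac

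The longer miR-494-3p probe pairs with bases 8 to 22 of the mature sequence, and the shorter with bases 9 to 22, in capitals in this copy.
miR-494-3p, paired bases: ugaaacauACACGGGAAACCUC

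Among the 1679 mature miRNAs searched, 0 others held the full site of either miR-494-3p probe or either miR-370-3p probe. The probes named for miR-299b-5p pair in full with miR-299a-5p too, so they cannot tell these apart, and they were detected on 0 arrays. Shorter or mismatched pairing was not searched.

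The kidneys gave a signal for few members. The detection flag of the scanner software, which asks whether the summed signal of a miRNA exceeds 3 times its error, was set on all 8 arrays for 3 of 35 members, or 8.57%: miR-494-3p, miR-370-3p and miR-487b-3p. Over the whole array the flag was set on all 8 arrays for 325 of 1881 miRNAs, or 17.3%. MiR-134-5p was detected on 3 arrays, which were control 1, control 3 and Akita 3. MiR-668-3p was detected on 2 arrays, control 1 and Akita 1. The other 30 members (85.7%) were detected on 0 arrays, against 76.4% of all miRNAs on the array. In bulk tissue, few cells with much of a miRNA and many cells with little of it cannot be told apart.

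The number of members detected was 5, 3, 4 and 3 on the control arrays and 4, 3, 4 and 3 on the Akita arrays, so the groups overlapped. Each group had 3 members detected on all of its 4 arrays, and in each group 5 were detected on at least 1 array. A stricter flag asks whether a spot lies well above background. By that flag, on at least 0.5 of the spots of a probe, 1 member remained on all 8 arrays, miR-494-3p, and miR-134-5p passed on 1 array, control 1.

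A single slide carried the 8 arrays, with the controls in slide row 1 and the Akita samples in slide row 2, so that row and group cannot be told apart. Each array held 30 spots per miRNA and 1000 negative control spots, 0 spots were saturated, and 350 to 429 miRNAs were detected per array. The 75th percentile used to scale the arrays was 495.4 to 520.1 in the controls and 368.8 to 446.2 in the Akita samples before scaling. Of the kidney tubule markers 7 of 7 were detected on all 8 arrays. Of 7 neuronal markers 3 were detected on all 8 arrays, and miR-9-3p was detected on 7 arrays. The other 3, miR-124-3p, miR-137-3p and miR-153-3p, all enriched in neurons, were detected on 0 arrays. Before scaling, the summed signal of the neuronal markers was 156.7 to 194.1 in the controls and 105.9 to 146.4 in the Akita samples. That of 6 leukocyte markers, all detected, was 1205 to 1351 in the controls and 687.6 to 813.6 in the Akita samples. For the 7 tubule markers it was 24201 to 27823 and 21561 to 25541, which overlapped. Like the 75th percentiles above, these sums were not adjusted for differences in overall signal between the arrays. The sum of 3 erythrocyte markers varied widely between the controls, from 104.3 to 1434, and was 501.8 to 793.0 in the Akita samples. The liver marker miR-122-5p read 5.83 to 48.9 and 19.6 to 51.9. Sums of 6 striated muscle markers were 40.6 to 71.7 and 41.8 to 61.8, and of 2 endocrine markers 39.4 to 45.1 and 29.5 to 37.8. The part of these markers in the values below was not tested.

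On the array's own annotation (mm9), 30 of the 35 members have a position on chromosome 12, spread over 163 kb from miR-493-3p to miR-410-3p. The 3 steadily detected members lay apart from each other. MiR-370-3p lies within Rian at chr12:110856523-110856536, miR-494-3p between the listed genes at chr12:110953585-110953598, and miR-487b-3p at chr12:110965597-110965613. Intervals are those of the probe sites, and gene names around them were taken from RefSeq by name.

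**Figure D1:**
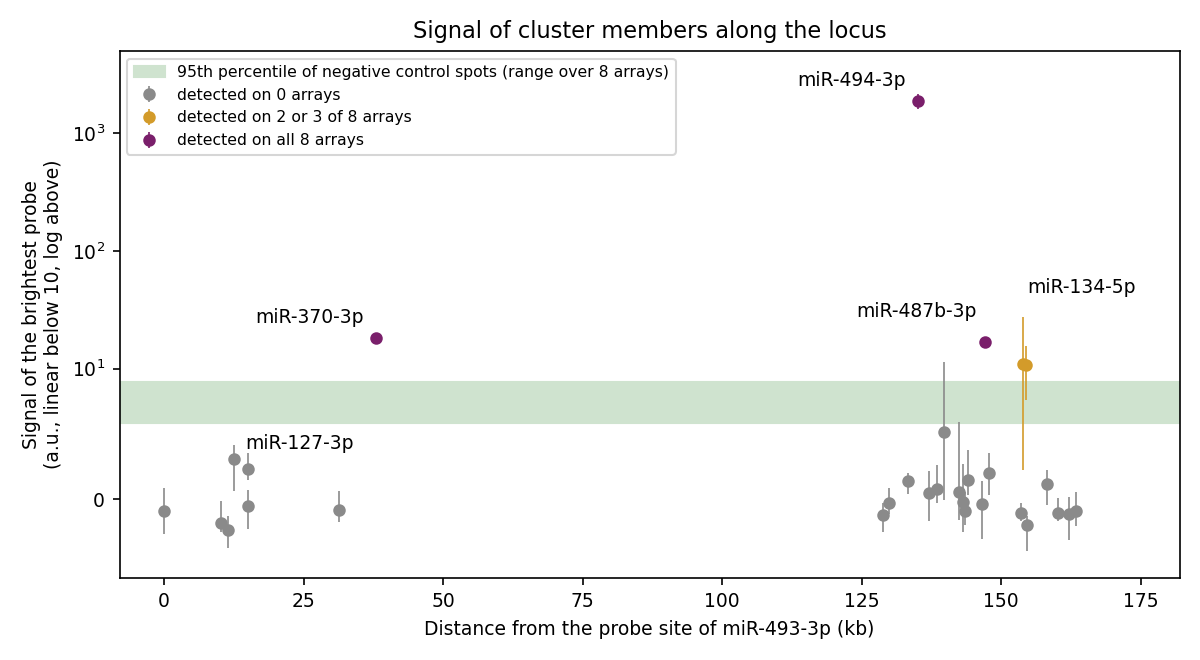
Signal of the brightest probe of each located member (y axis, arbitrary units, linear below 10 and logarithmic above) against the distance of its probe site from that of miR-493-3p (x axis, kb). Points are means over 8 arrays, bars run from the lowest to the highest array, and the band spans the 95th percentiles of the negative control spots, 5.82 to 8.99. MiR-494-3p, miR-370-3p and miR-487b-3p lie above the band on every array, and most grey points lie below it.

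The 30 undetected members had mean signals below the 95th percentiles of single negative control spots. The medians of these control spots ran from -0.23 to 2.92 over the 8 arrays and their 95th percentiles from 5.82 to 8.99, in arbitrary units. The brightest probe of each undetected member, averaged over the 8 arrays, ran from -2.32 to 5.15 with a median of -0.43. Member values are means over the spots of a probe, which vary less than single spots, so this percentile is a lenient limit. On each of the 8 arrays 29 members stayed at or below that array's 95th percentile of negative controls, 3 exceeded it on all 8 arrays, and 3 exceeded it on some. The 3 that did so on all 8 arrays were the 3 detected ones, against 20.4% of the miRNAs on the array. MiR-667-3p was the only undetected member above that percentile on any array, on 2 of 8, with a highest value of 11.3.

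By position, undetected members lay in every stretch of the locus. Antisense to Rtl1, 0 of 8 members were detected: miR-127-3p, miR-136-5p, miR-136-3p, miR-337-5p, miR-431-5p, miR-433-3p, miR-434-3p and miR-493-3p had mean signals from -2.32 (miR-337-5p) to 3.07 (miR-127-3p). MiR-341-3p, in Rian, had a mean of -0.83. Within Mirg 0 of 6 members were detected, namely miR-154-5p, miR-369-3p, miR-377-3p, miR-409-3p, miR-410-3p and miR-541-5p, with means from -1.11 to 3.00. Between the listed genes 15 of 19 members were undetected. They were miR-300-3p, miR-323-3p, miR-329-3p, miR-376a-3p, miR-376b-3p, miR-376c-3p, miR-379-5p, miR-381-3p, miR-382-5p, miR-411-5p, miR-485-5p, miR-495-3p, miR-539-5p, miR-543-3p and miR-667-3p, with means from -1.997 to 5.15. A signal at this level allows no comparison between Akita and control, and a low level in these kidneys cannot be told from none. The GC content of their longest probe ran from 23.8% to 71.4% with a median of 50%, and that of miR-494-3p, miR-487b-3p and miR-370-3p was 53.3%, 50% and 66.7%.

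MiR-494-3p stood out from its surroundings in being detected at all. Within 5 kb of its probe site, a window chosen after the values were seen, the array covers 15 other cluster miRNAs with a mapped position, 7 upstream and 8 downstream, and 0 of them were detected on any array. Another 2, miR-679-3p and miR-1193-5p, have no mapped position but are arms of hairpins in this window, and they too were detected on 0 arrays. The brightest probes of the 15 had means from -1.59 to 5.15, within the range of the negative control spots. They include 4 listed members, miR-329-3p, miR-543-3p, miR-495-3p and miR-667-3p, and the closest, miR-494-5p, is the opposite arm of the same hairpin and had a mean of 0.83.

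MiR-494-3p was not called between the groups. Its summed probe signal before scaling was 3022, 3030, 2856 and 2795 in the controls and 3060, 3286, 2455 and 2607 in the Akita samples. Before scaling the groups overlapped, with Akita 2 the highest and Akita 3 the lowest of the 8. After division by each array's 75th percentile, the log2 signal was 11.46, 11.44, 11.34 and 11.28 in the controls and 11.63, 11.77, 11.35 and 11.67 in the Akita samples. On this scale Akita 1, 2 and 4 lay above every control, and Akita 3 lay among the controls; 22.8% of the 285 tested miRNAs had groups that did not overlap at all.

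The group means were 11.38 ± 0.09 (SD, n = 4) and 11.60 ± 0.18 (SD, n = 4) on that log2 scale. The log2 fold change, Akita minus control, was 0.23 ± 0.10 (SE), a 1.17-fold higher mean, with a 95% interval from 0.01 to 0.44. In limma the unadjusted p was 0.044 and the Benjamini-Hochberg adjusted p over 285 tested miRNAs was 0.14, above the threshold of 0.05, so the difference did not hold up after correction. The 14-base and 15-base probes gave log2 fold changes of 0.22 and 0.24. In the authors' deposited table the ratios of miR-494-3p were 1.00, 1.00, 0.963 and 0.900 in the controls and 1.10, 1.26, 0.966 and 1.10 in the Akita samples, with the same overlap through Akita 3. Without Akita 3 the log2 fold change was 0.31 (limma adjusted p = 0.060), and without Akita 4 it was 0.14 (limma adjusted p = 0.48).

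**Figure D2:**
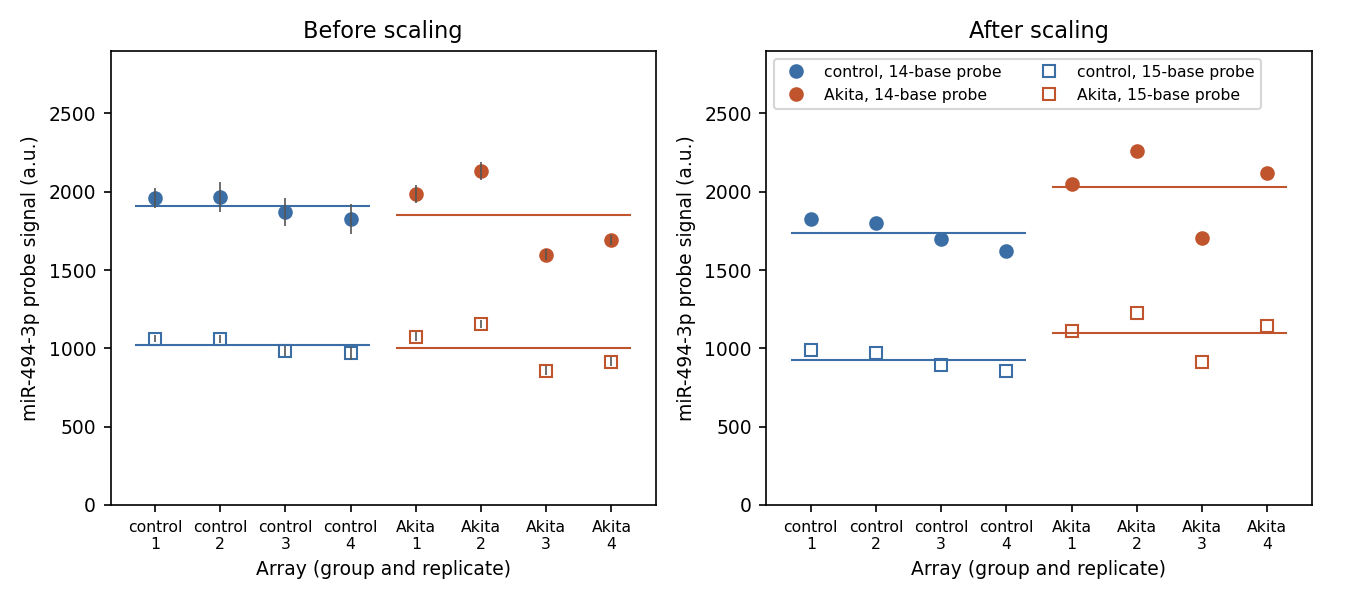
Signal of the 14-base probe (filled circles) and the 15-base probe (open squares) of miR-494-3p on each array, before scaling (left, bars are the SD over spots) and after division by each array's 75th percentile, rescaled to the same units (right). The x axis gives group and replicate, the y axis arbitrary units from 0, and horizontal lines are group means; the controls and Akita samples overlap before scaling, and after scaling Akita 3 lies among the controls while Akita 1, 2 and 4 lie above them.

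The direction for miR-494-3p depended on how the arrays were scaled. Without scaling the log2 fold change was -0.05, and with bright control spots named dmr as the reference it was -0.01. The median over all 285 tested miRNAs was 0.06 with the scaling used here, -0.21 without scaling and -0.18 with the dmr spots. Relative to that median, miR-494-3p lay 0.16 higher with the scaling used here. These alternatives divide each array by 1 number, which shifts every miRNA alike, so that this distance is the same under each of them by construction. Under quantile normalization and cyclic loess, which do not do so, it was 0.21. After normexp background correction, which adds an offset of 50 to every spot, it was 0.07.

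**Figure D3:**
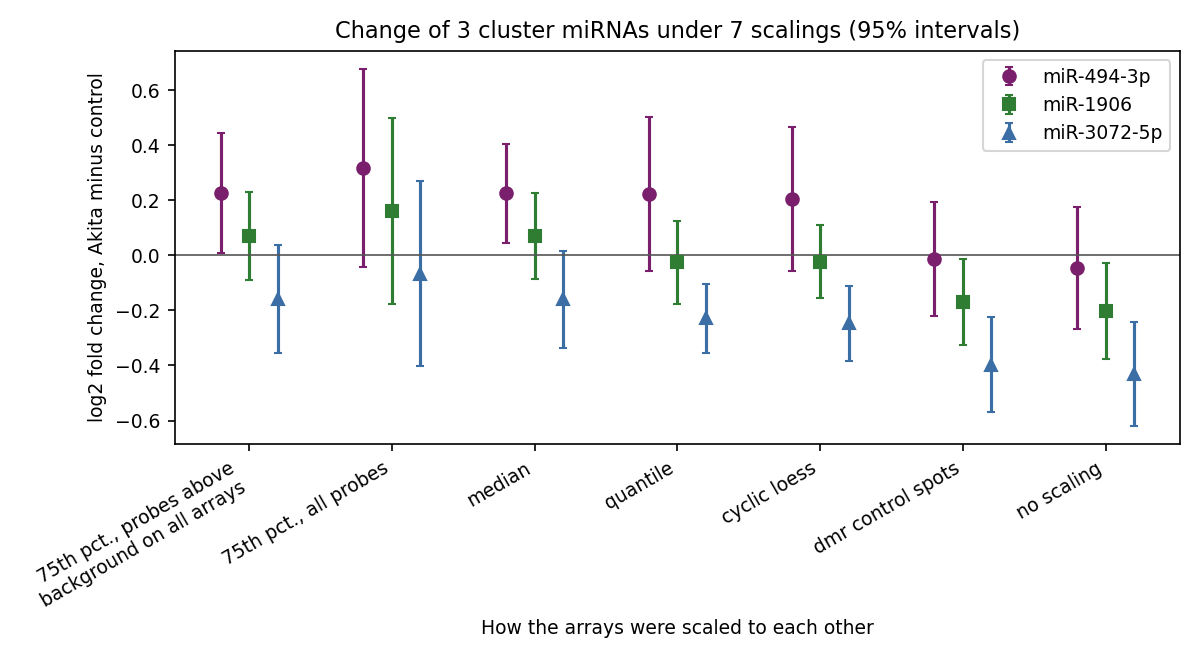
Log2 fold change, Akita minus control (y axis), of miR-494-3p and of the other cluster miRNAs miR-1906 and miR-3072-5p under 7 ways of scaling the arrays (x axis). Points are limma estimates from 4 arrays a group and bars 95% intervals; miR-494-3p runs from 0.32 with the 75th percentile over all probes to -0.05 without scaling, and miR-3072-5p lies below 0 under all 7.

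MiR-370-3p and miR-487b-3p were detected on every array but were too dim for the stricter flag, and were compared in an added limma fit over the 367 miRNAs that the detection flag kept, on the software's total signal. MiR-370-3p, known for roles in lipid metabolism of the liver, lies within Rian. The sum of its probes before scaling was 29.9, 33.4, 33.5 and 28.0 in the controls and 34.01, 33.0, 26.05 and 31.6 in the Akita samples. These sums overlapped throughout.

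The scaled log2 total signal of miR-370-3p was 2.64, 2.02, 2.78 and 1.83 in the controls and 2.91, 2.97, 1.88 and 3.01 in the Akita samples. The total counted both probes on 5 arrays and only 1 probe on control 2, control 4 and Akita 3, which are the 3 low values. The means were 2.32 ± 0.46 (SD, n = 4) and 2.70 ± 0.54 (SD, n = 4), and the log2 fold change was 0.38 ± 0.33 (SE) with a 95% interval from -0.40 to 1.16 (limma adjusted p = 0.47). With both probes summed on every array, where 0 sums lay under the floor used for the brighter miRNAs, it was 0.27 (limma adjusted p = 0.17). Leaving out Akita 3 raised it to 0.65 (limma adjusted p = 0.18), and leaving out control 4 lowered it to 0.18 (limma adjusted p = 0.81).

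MiR-487b-3p, from the row of hairpins that begins with miR-379, had scaled log2 total signals of 1.79, 1.81, 1.72 and 1.64 in the controls and 2.00, 1.99, 1.85 and 2.19 in the Akita samples. On this scale the groups did not overlap, as was the case for 21.0% of the 367 miRNAs in this fit. The means were 1.74 ± 0.08 (SD, n = 4) and 2.01 ± 0.14 (SD, n = 4). The log2 fold change was 0.27 ± 0.08 (SE) with a 95% interval from 0.08 to 0.46, an unadjusted p of 0.013 in limma and an adjusted p of 0.085, so it was not called. With cyclic loess it was 0.41 (limma adjusted p = 0.054). Without scaling it was -0.02, where the median over all 367 miRNAs was -0.31 against -0.02 in this fit, so its distance above the median, 0.29, was the same by construction. The unscaled totals carry a factor set by the software. Total over summed probe signal, read from miR-494-3p, was 0.281 on control 4 and 0.212 on every other array. This raises the unscaled totals of control 4, and the scaling divides it out, so the unscaled value does not reflect probe signal alone. A sum of both probes with the common floor could not measure the change, since 5 of the 8 sums, all 4 controls and Akita 3, lay under the floor and were set to it (0.13, limma adjusted p = 0.22). On all 8 arrays the total counted only the 18-base probe, while the 17-base probe read 2.56 to 7.10. Before scaling the 18-base probe read 16.5, 17.3, 16.1 and 15.1 in the controls and 18.1, 16.7, 16.0 and 17.9 in the Akita samples. These unscaled values overlapped between the groups.

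**Figure D4:**
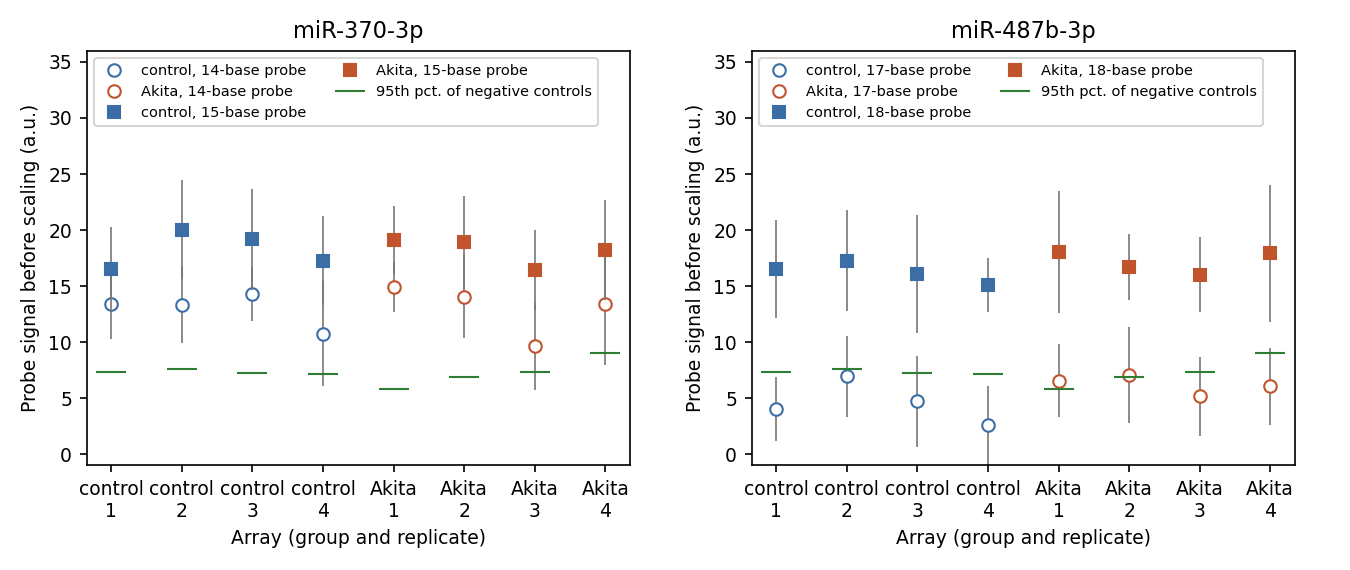
Probe signals before scaling (y axis, arbitrary units) of miR-370-3p (left) and miR-487b-3p (right) on each array (x axis, group and replicate), with the shorter probe as open circles, the longer probe as filled squares, bars as the SD over spots and green dashes as the 95th percentile of that array's negative control spots. Both probes of miR-370-3p lie above the dashes on every array (9.62 to 14.9 and 16.4 to 20.04), whereas for miR-487b-3p only the 18-base probe does so.

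MiR-134-5p and miR-668-3p neighbour each other near the far end of the cluster and were each detected on some arrays only. The summed signal of the 4 miR-134-5p probes before scaling was 102.3, 12.8, 50.4 and 35.1 in the controls and 24.2, 11.4, 53.0 and 26.1 in the Akita samples. Control 1 was the highest and control 2 and Akita 2 the lowest, and the groups overlapped. The 4 probes, of 10 to 13 bases, moved together: on control 1 they read 22.9 to 27.6, on control 2 1.00 to 5.38 and on Akita 2 1.40 to 5.72. They are shortened forms of the same sequence, so they are not independent.

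The summed signal of miR-668-3p was 41.4, 36.1, 29.2 and 24.6 in the controls and 33.7, 29.1, 30.5 and 27.4 in the Akita samples. Control 4 was the lowest and control 1 the highest, with every Akita sample between them. Neither miRNA was detected on all 4 arrays of a group, so neither was tested.

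**Figure D5:**
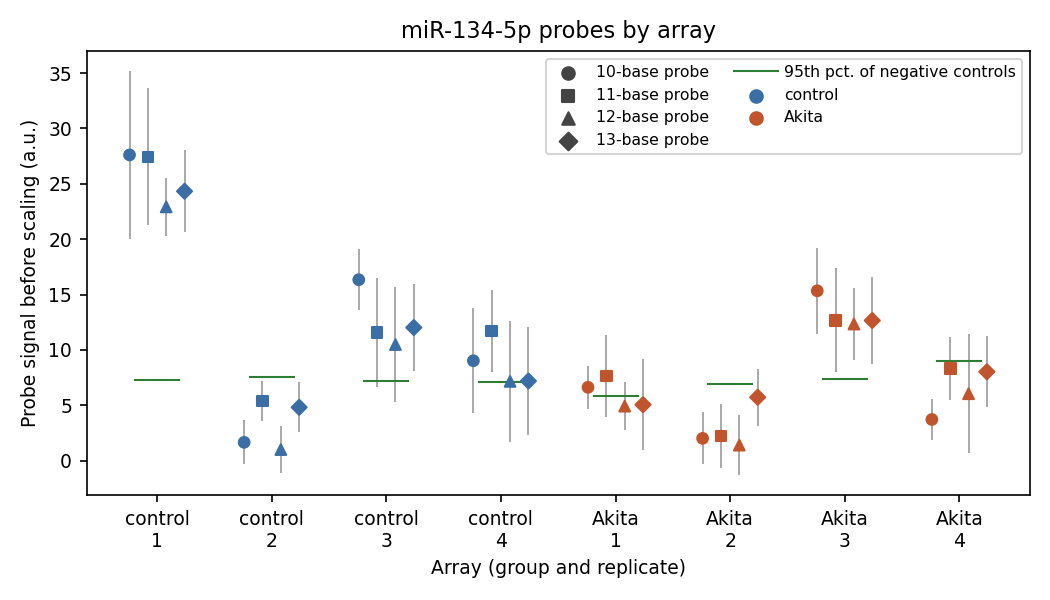
Signal before scaling (y axis, arbitrary units) of the 4 miR-134-5p probes of 10 to 13 bases on each array (x axis, group and replicate). Symbols stand for probe length, colours for group, bars for the SD over spots and green dashes for the 95th percentile of negative control spots; all 4 probes are high on control 1 and below the dash on control 2 and Akita 2.

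Across the list, 0 of the 1 member tested in the fit of bright miRNAs was called, where 14.7% of all 285 tested miRNAs were called. In the fit by detection flag 0 of 3 tested members were called, against 11.4% of 367. The median log2 fold change of the members tested was 0.23 in the first fit and 0.27 in the second, beside 0.06 and -0.02 over all miRNAs tested. With 1 and 3 members these medians describe single miRNAs, and 1 member in each fit had an unadjusted limma p under 0.05.

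The rest of the cluster was read from a list of 77 other miRNAs on the array, 34 of them opposite arms of the members and 43 from other hairpins. Of these 2 were detected on all 8 arrays and 75 on 0, so that in the whole cluster 105 of 112 miRNAs were detected on 0 arrays. The 2 detected ones are shown with the seed in capitals.
mmu-miR-1906: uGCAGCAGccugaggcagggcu
mmu-miR-3072-5p: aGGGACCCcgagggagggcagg

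MiR-1906 lies within Meg3, with another locus named by RefSeq on the X chromosome, so its signal cannot be assigned to the cluster alone. Its log2 signal was 6.85 ± 0.10 (SD, n = 4) in the controls and 6.92 ± 0.06 (SD, n = 4) in the Akita samples, a log2 fold change of 0.07 ± 0.07 (SE) with a limma adjusted p of 0.51. Its sign turned under other scalings, to -0.03 with quantile normalization and -0.20 without scaling. MiR-3072-5p, within Mirg at chr12:110986113-110986124, was 6.61 ± 0.16 (SD, n = 4) and 6.46 ± 0.04 (SD, n = 4), with a log2 fold change of -0.16 ± 0.09 (SE), a 95% interval from -0.35 to 0.04 and a limma adjusted p of 0.23. Without control 1 it was -0.09, and without Akita 4 it was -0.24. It was called lower in the Akita samples under 4 other settings: with quantile normalization (-0.23, limma adjusted p = 0.024), with cyclic loess (-0.25, adjusted p = 0.019), with the dmr spots (-0.40, adjusted p = 0.0058) and without scaling (-0.43, adjusted p = 0.0048). Under these settings 8.77%, 14.4%, 33.0% and 36.5% of all 285 miRNAs were called lower, in that order, against 6.32% with the scaling used here. After normexp background correction, with its offset of 50, miR-3072-5p was at 0.05, while its probes read 27.3 to 73.3 before scaling. The difference between miR-3072-5p and miR-494-3p was not tested.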

How the data were processed

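Total RNA from whole kidneys was measured on one-colour Agilent mouse miRNA arrays, 4 control and 4 Akita samples grouped by their titles. The deposited scanner files hold spot intensity values that, per the file headers, Agilent Feature Extraction 12.0.3.1 made by subtracting a fitted background, with no normalization between arrays. The authors' deposited table holds a ratio per miRNA and array, made by steps the sources used here do not give, and served as an alternative. Detection, outlier and above-background flags were used as deposited.

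Outlier spots were left out (2.03% to 3.02% of spots per array), spots were averaged per probe, and arrays were scaled by the 75th percentile of 451 probes, those flagged well above background on all 8 arrays (on 0.5 or more of a probe's spots). Probes of a miRNA were summed, sums under a floor of 23.65 were set to it, and log2 was taken. The 285 miRNAs well above background on all 4 arrays of a group were tested in R 4.3.3 with lmFit and eBayes of limma 3.58.1 (two-sided, Benjamini-Hochberg over all tested, threshold 0.05). On simulated data only this limma fit was tested, not the other steps. Since the floor lies near the signal of dim members, a second limma fit used Feature Extraction's total signal for the 367 miRNAs with the detection flag on all 4 arrays of a group, scaled over 325 miRNAs. Undetected values are listed there at 0.1. The number of arrays limits the precision.

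The members and lists were chosen with earlier results of these data known. The second fit and all but 1 of its 13 alternatives, the negative-control percentile, the window around miR-494-3p, which control spots to scale on (4 bright sequences named dmr, whose role the files do not state) and the values relative to the median were chosen after seeing the data. All listed members are accounted for. Members detected on all 4 arrays of a group are given array by array, as is any of the other cluster miRNAs by its group values. MiR-134-5p, miR-668-3p and miR-667-3p were singled out after their values were seen. Sequences and gene names come from RefSeq with GRCm38.p6, positions from the array annotation (mm9).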

Additional observations from a re-analysis of the deposited data

Results flagged for a closer look

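A check for a sample far from the others of its group, by Dixon's ratio with its 95% limit, was run on 20 groups of values, and 5 exceeded the limit. Chance alone flags about 1 group in 20 where values vary freely, which does not hold for totals listed at a fixed minimum. MiR-370-3p on Akita replicate 3 had a scaled log2 total signal of 1.88, with the other Akita samples at 2.91 to 3.01. On that array the total counted 1 of the 2 probes.

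The other flags are on the totals of miR-134-5p and miR-668-3p as listed, where an undetected array has 0.1. MiR-134-5p was listed at 10.9 on control replicate 1, with the other controls at 0.1 to 1.85, and at 4.42 on Akita replicate 3, with the others at 0.1. MiR-668-3p was listed at 1.74 on control replicate 1 and at 1.40 on Akita replicate 1, with the others of each group at 0.1. Where all others of a group are at 0.1, the ratio is at its maximum whatever the high value, so such a flag cannot be set against chance. On the summed probe signals of the same miRNAs, which have no such minimum, 0 groups exceeded the limit.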

How the results depend on the processing

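The results were computed under 27 alternatives for the bright miRNAs, 1 of them added after seeing the data (as was the choice of the dmr spots for another), and 13 for the dim ones, all but 1 of them added so. The number of members called was 0 under each. MiR-494-3p was positive under 25 of 27, with limma adjusted p from 0.060 to 0.92, and turned to -0.046 without scaling and -0.013 with the dmr spots, as did the median of the tested members, which is this miRNA. That median was 0 with no filter, where 35 members were tested, most at the floor. Leaving out 1 array gave miR-494-3p 0.14 to 0.31. MiR-1906 turned to -0.20 without scaling, -0.17 with the dmr spots, -0.026 with quantile normalization, -0.023 with cyclic loess, -0.011 with the total signal (both ways of testing it) and -0.0048 without Akita replicate 4, the lowest of a range up to 0.086 over the arrays left out. MiR-3072-5p turned to 0.052 with normexp, whose offset of 50 is near the size of its probe signals, and was -0.24 to -0.09 without 1 array. MiR-487b-3p turned to -0.021 without scaling, where the median of all 367 miRNAs was -0.31, and was 0.41 with cyclic loess. Its unscaled value, like that median, includes the larger software factor in the totals of control 4. The number of members detected on all 4 arrays of each group, 3, became 5 when 1 array sufficed, 1 with spots well above background and 5 with spots positive and significant. Without scaling and with the dmr spots the whole distribution moved, to a median of -0.21 and -0.18 over the 285 miRNAs, and the sign turns there are part of that common shift; the causes of the others were not tested. Deviations from the group mean showed no sign of pairing by replicate number, though 4 samples a group cannot exclude it. Their correlations were 0.10, -0.30, 0.34 and -0.35, and 0 of 4 controls correlated best with the Akita sample of its own number. With the replicate block miR-494-3p stayed at 0.23 (limma adjusted p = 0.24), and calls over all miRNAs went from 42 to 25, and from 42 to 7 in the fit by detection flag. Over all miRNAs the 42 calls (24 higher, 18 lower) became 109 (5 higher, 104 lower) without scaling, 99 (5 and 94) with the dmr spots, 70 (29 and 41) with cyclic loess, 60 (35 and 25) with quantile normalization, 89 (81 and 8) with normexp, 14 (10 and 4) with the percentile over all probes, 6 (4 and 2) with no filter and 18 to 37 without 1 array. For 30 members the signal over background was the limit, since they were detected on 0 arrays.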
